A study of Mus musculus with 15 samples.

Results

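The genes described here are 47 interferon-stimulated genes whose products act against viruses, chosen by name from a list; the list was drawn up when earlier results of these data were known. Of the 47, 45 had at least 1 probe set of their own on the array, meaning a probe set annotated to that gene alone, and 41 were bright enough to be tested, out of 11925 genes tested and 18193 genes with a probe set of their own. The study took foam cells, which are lipid-laden macrophages, from lesions in cross-sections of the aortic sinus by laser-capture microdissection, and hybridised their amplified RNA to 15 Affymetrix whole-genome mouse arrays. All 15 samples came from ApoE-/- mice of strain C57BL/6, which lack apolipoprotein E and develop atherosclerosis, so every group carries the deletion and no mouse with intact Apoe was part of the comparison.

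The 3 groups of 5 arrays differed in diet. CHOW mice ate regular chow up to 22 weeks of age. The 14w-WD mice ate a western-type diet for 14 weeks, from week 8 to week 22. The 2w-WD mice ate that diet for 2 weeks, from week 22 to week 24 by the series text, but after 20 weeks of chow by the sample labels, so their age is given in 2 ways and may differ from that of the other groups. The labels tie no array to an animal, so a p-value here covers the sample-to-sample spread alone, part of which may be technical rather than between animals.

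Type I interferons bind a receptor on the cell surface whose kinases activate transcription factors. These bind the interferon-stimulated response element found in promoters of many such genes. The products detect or bind viral RNA, break down nucleic acids, tag proteins with ISG15 or hold virus particles at membranes, and macrophages are among the cells that make them in quantity when interferon is present. In atherosclerotic lesions such genes mark a group of inflammatory macrophages.

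The element's core was searched on both strands of the RefSeq promoter windows of build GRCm38.p6, from 250 bases before to 50 bases after each transcript start, as GAAA, then any 2 bases, then GAAA. Matches of the core may overlap each other. A window was listed for 37 of the 47 genes, and 16 of the 37 (43.2%) held the core, against 3.99% of all 27025 genes with a window. The 16 were Bst2, Ddx60, Eif2ak2, Ifi203, Ifit1, Ifit3, Ifitm2, Ifitm3, Isg15, Lgals9, Oas1a, Oas3, Rsad2, Slfn5, Trim21 and Trim30a. Stretches of 120 bases upstream of the start are printed for 6 genes: Bst2 and Ifit2, which passed a test below (the 2 windows of Ifit2 held no core), Ifit1, Ifit3 and Rsad2, which stood next to Ifit2 in their changes, and Oas1a, a gene with the core whose groups overlapped. They are written 5′ to 3′ on the strand of the gene, and capitals mark every base inside a match. On the strand shown, a core lying on the opposite strand reads TTTC, 2 bases, TTTC.
Ifit1, chr19:34640769-34640888, plus strand: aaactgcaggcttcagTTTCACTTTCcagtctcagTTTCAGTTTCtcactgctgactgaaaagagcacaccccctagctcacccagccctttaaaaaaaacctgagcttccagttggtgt
Ifit3, chr19:34583368-34583487, plus strand: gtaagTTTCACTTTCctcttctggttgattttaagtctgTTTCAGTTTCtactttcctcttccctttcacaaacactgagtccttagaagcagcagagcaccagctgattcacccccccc
Ifit2, chr19:34550574-34550693, plus strand: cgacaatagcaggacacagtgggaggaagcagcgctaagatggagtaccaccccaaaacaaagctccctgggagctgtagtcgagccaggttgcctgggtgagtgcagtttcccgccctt
Bst2, chr8:71537488-71537607, minus strand: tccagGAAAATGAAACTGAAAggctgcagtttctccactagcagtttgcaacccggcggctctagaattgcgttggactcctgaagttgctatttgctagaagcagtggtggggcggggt
Rsad2, chr12:26456453-26456572, minus strand: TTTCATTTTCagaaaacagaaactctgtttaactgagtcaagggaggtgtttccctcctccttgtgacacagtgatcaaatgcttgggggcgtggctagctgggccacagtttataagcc
Oas1a, chr5:120907526-120907645, minus strand: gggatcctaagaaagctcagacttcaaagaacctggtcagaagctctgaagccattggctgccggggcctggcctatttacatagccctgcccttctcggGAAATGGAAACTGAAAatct

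Ifit1 and Ifit3 each held 2 separate cores, the first at 104 and 156 bases before the start. In Bst2 and Oas1a 2 cores overlapped, beginning at 130 bases before the start of Bst2 and only 20 bases before that of Oas1a. Rsad2 held 1, at 120 bases. The windows place Ifit2, Ifit3 and Ifit1 in that order on chromosome 19. A match is a description of letters and says nothing about binding, and the lack of a match covers this window alone.

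Levels are log2(intensity + 16) of a gene's brightest probe set by its mean over all 15 arrays, and a gene was tested where that mean reached the median of all probe sets, a log2 level of 5.66. A change is a difference between group means on this scale, which understates the fold change of dim genes. It is given with its standard error (SE) from limma, with 5 arrays a group, and with a p-value adjusted by Benjamini-Hochberg over all 11925 genes, where under 0.05 counts as passing. Where 3 means with SDs follow each other, they stand in the order CHOW, 2w-WD, 14w-WD (n = 5 each). Levels of different probe sets cannot be set against each other. The 41 tested genes had mean levels from 5.69 to 12.93. Of these, 28 stood above 5.66 on all 15 arrays and 13 fell below it on at least 1.

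Of the genes not tested, Mx2 was listed at an intensity of 1 on all 15 arrays. Usp18, the protease that takes ISG15 off proteins and a brake on the interferon receptor, averaged 5.26 ± 0.38, 5.33 ± 0.31 and 5.51 ± 0.14. Lgals3bp and Ddx60 were also below 5.66 on average. Isg15, the ubiquitin-like protein itself, shares its probe set with another gene, and Ifi44 had no probe set of its own here, so both were not analysed here.

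On the whole arrays, 1338 genes (11.2%) passed in 14w-WD against 2w-WD, 1 passed in 14w-WD against CHOW and none in 2w-WD against CHOW. Arrays of 14w-WD were brighter: 24.8% ± 1.79 of probe sets exceeded an intensity of 100 there, against 20.9% ± 2.86 in 2w-WD and 21.7% ± 1.84 in CHOW (SD, n = 5). Of 14 macrophage markers 13 were tested and Itgam was below the filter, and their mean level ran from 11.20 to 12.04 in CHOW, 11.10 to 11.56 in 2w-WD and 11.46 to 12.20 in 14w-WD. All 15 heart muscle markers were bright enough to test, with means from 6.67 to 10.97 in CHOW, 9.67 to 12.41 in 2w-WD and 9.08 to 11.55 in 14w-WD. All 7 fibroblast markers were tested too, at 11.04 to 11.88, 10.56 to 11.63 and 11.51 to 12.19 in the same order. In 14w-WD against 2w-WD the macrophage markers Aif1 (1.82, SE 0.33, adjusted p = 0.0106) and Tyrobp (0.38, SE 0.10, adjusted p = 0.0261) and the fibroblast markers Pdgfra (1.95, SE 0.52, adjusted p = 0.0291) and Col1a1 (1.05, SE 0.31, adjusted p = 0.0402) rose, and the NK cell marker Ncr1 fell (-0.87, SE 0.22, adjusted p = 0.0234). Ncr1 was 1 of 5 T and NK cell markers tested, of which 2 lay above 0 here, with a median of -0.12. In captured tissue, a change in the number of cells of a type and a change in RNA per cell cannot be told apart. Brightness and the heart muscle markers entered the model where a value is given below. Beyond that, the part of brightness or of any cell type in the results below was not tested.

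What 14 weeks of the diet did was asked against CHOW. Ifit2 stood highest above CHOW, by 2.53 on the log2 scale, followed by Rtp4, Rsad2, Ifit1, Ifi204 and Ifit3, each by more than 1. None of the 41 genes passed the adjusted threshold, where 0.00839% of all genes did. At an unadjusted p under 0.05, 8 of the 41 were higher and none was lower, that is 19.5% against 11.2% of all genes that were higher at this level and 4.65% that were lower. The median change of the 41 was 0.30, against 0.16 over all genes, and 33 of 41 lay above 0 (80.5%, against 65.6% of all genes). Changes above 1 were found for 6 of the 41 (14.6%) and 5.43% of all genes. After quantile normalization the medians were 0.16 for the 41 and 0.00 for all genes, with 28 of 41 above 0, beside 50.4% of all genes. With array weights 9 of the 41 passed (22.0%, beside 18.7% of all genes).

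What 2 weeks of the diet did was asked against the same CHOW arrays. None of the 41 genes passed, as none of all genes did (0%). At an unadjusted p under 0.05, 2 of 41 were lower (Bst2 and Trim25) and none higher, against 7.3% of all genes that were lower, 2.47% that were higher and 9.76% in either direction. The median change was 0.06, against -0.10 over all genes. Of the 41 genes 26 lay above 0, which is 63.4% against 38.8% of all genes.

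The difference between the 2 durations was asked with 14w-WD against 2w-WD. Bst2 and Ifit2 rose, and they were the only ones of the 41 genes to pass (4.88%, against 11.2% of all genes, 10.1% of them being higher and 1.15% lower), so the share of these genes that passed was below the background. At an unadjusted p under 0.05, 9 were higher and 2 lower, which is 22.0% and 4.88% against 25.9% and 6.13% of all genes, or 26.8% against 32.1% in either direction. The median change of 0.23 equalled that of all genes at this precision (0.23), and 30 of 41 lay above 0 (73.2%, against 65.2%). After quantile normalization the medians were 0.04 and 0.01, and 21 of 41 lay above 0, beside 51.1% of all genes. The count that passed was 0 without 2w-WD 4, 14w-WD 1 or 14w-WD 3 (beside 2.18%, 1.38% and 1.88% of all genes) and 1 without 2w-WD 2 or 14w-WD 5 (2.18% and 4.76%). It was 4 without CHOW 1 (9.76% of the 41, beside 15.3% of all genes), 5 without 14w-WD 4 (12.2%, beside 13.5%) and 9 without 2w-WD 1 (22.0%, beside 29.7%). With array weights it was 10 (24.4%, beside 32.2%), and with the share of bright probe sets in the model neither these genes nor any other passed. With the mean of the heart muscle markers in the model the count was 2 (4.88%, beside 10.8% of all genes). All 3 comparisons draw on the same 15 arrays and each pair of them shares a group, so they are not independent of each other.

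**Figure D1:**
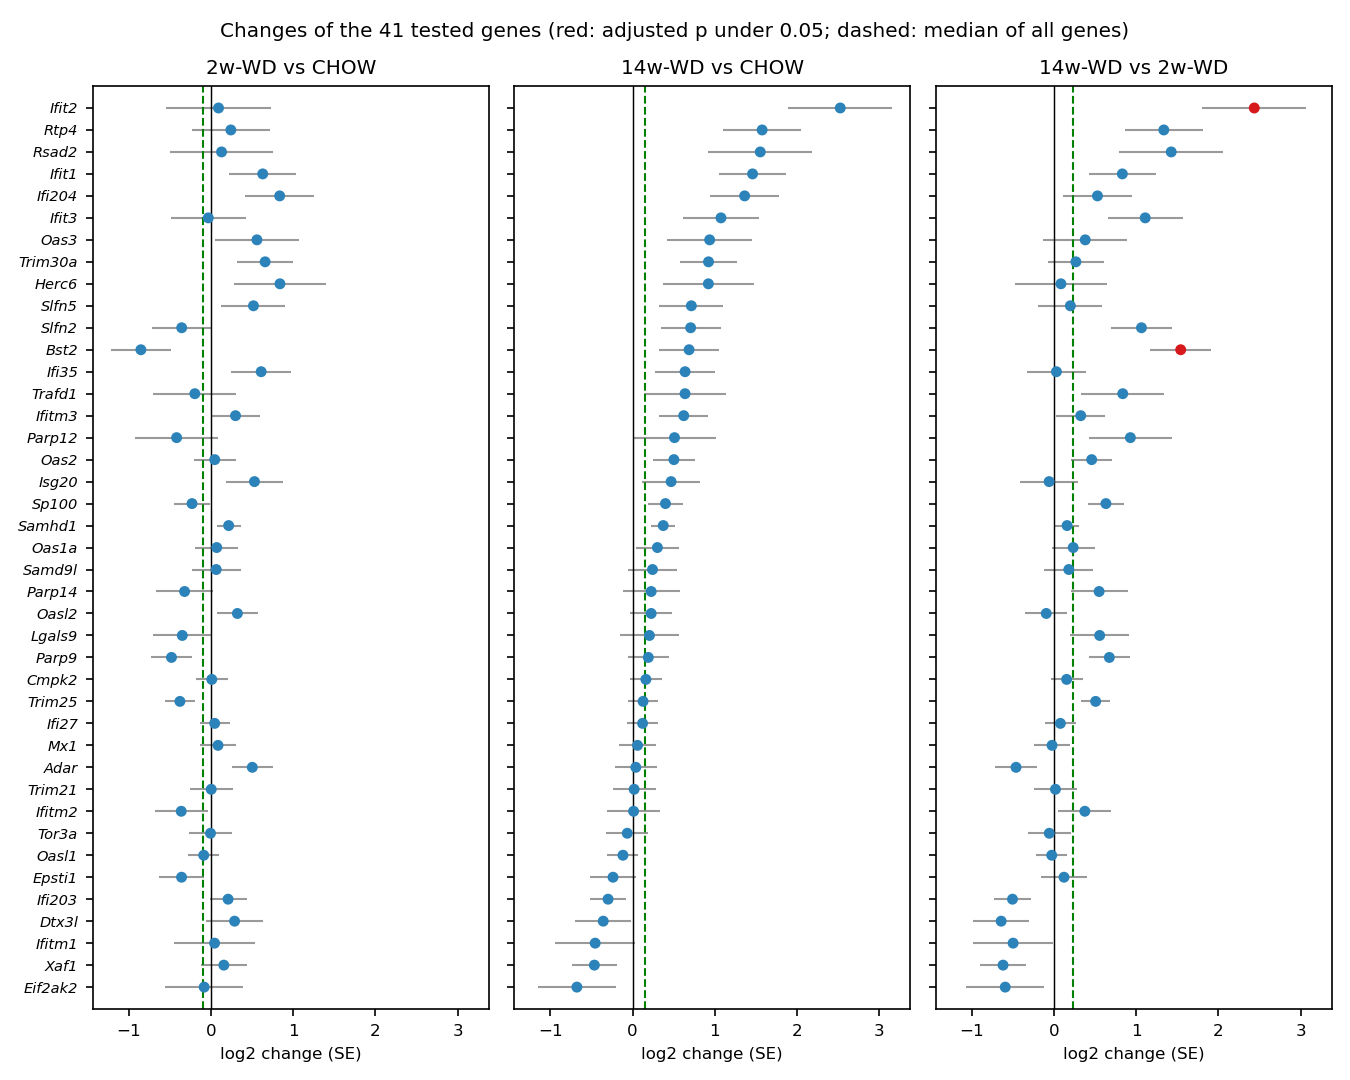
Log2 change (x axis) of each of the 41 tested genes (y axis) in the 3 comparisons, with bars for 1 SE; red points passed an adjusted p of 0.05 and the dashed line is the median of all genes tested. Ifit2 has the highest change from CHOW at 14 weeks (2.53), and Bst2 and Ifit2 are the points that passed between 14 and 2 weeks.

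The genes are taken by role, beginning with proteins that bind or sense RNA. The IFIT proteins bind viral RNA ends and block its translation. Ifit2 read 7.34, 6.32, 5.75, 6.45 and 4.09 on CHOW arrays 1 to 5, 6.59, 7.56, 6.29, 4.25 and 5.72 on 2w-WD arrays 1 to 5, and 9.12, 6.80, 8.41, 8.67 and 9.59 on 14w-WD arrays 1 to 5. The value of 4.09 on CHOW 5 is an intensity of 1. In 14w-WD, 4 of 5 arrays lay above all 10 arrays of the other groups, and 14w-WD 2 lay among them. The change was 2.44 against 2w-WD (5.41-fold, SE 0.63, adjusted p = 0.0270, limma) and 2.53 against CHOW (5.77-fold, SE 0.63, adjusted p = 0.113), while 2w-WD against CHOW gave 0.09 (SE 0.63, adjusted p = 0.967). The call against 2w-WD was lost without 2w-WD 4 (1.98, adjusted p = 0.0796), without 14w-WD 1 (2.29, adjusted p = 0.0772), without 14w-WD 3 (2.46, adjusted p = 0.0639) and without 14w-WD 5 (2.17, adjusted p = 0.0652). It was lost with a pseudocount of 1 (3.03, adjusted p = 0.0686) and when the share of bright probe sets entered the model (1.59, adjusted p = 0.645), a fit in which no gene of the array passed.

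Ifit1 read 5.86, 6.16, 5.30, 7.22 and 5.00 in CHOW, 7.16, 6.70, 6.20, 6.35 and 6.29 in 2w-WD, and 7.72, 6.49, 8.43, 6.64 and 7.57 in 14w-WD. Again 3 arrays of 14w-WD exceeded all others, but 14w-WD 2 and 14w-WD 4 lay within the other groups. The change of 14w-WD from CHOW was 1.46 (SE 0.41, adjusted p = 0.136) and that from 2w-WD was 0.83 (SE 0.41, adjusted p = 0.168). The mean of 2w-WD (6.54 ± 0.40) lay between CHOW (5.91 ± 0.86) and 14w-WD (7.37 ± 0.81), and the ranges of neighbours in this order overlapped.

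Ifit3 read 7.01, 5.91, 6.01, 6.11 and 4.78 in CHOW, 6.83, 6.83, 6.14, 4.40 and 5.46 in 2w-WD, and 7.51, 6.45, 7.32, 6.32 and 7.60 in 14w-WD. Arrays 1, 3 and 5 of 14w-WD were the highest of the 15, as they were for Ifit1. Its changes at 14 weeks, 1.08 from CHOW (SE 0.46, adjusted p = 0.272) and 1.11 from 2w-WD (SE 0.46, adjusted p = 0.111), did not pass. They were 0.27 and 0.09 with the share of bright probe sets in the model, and the second was 0.73 without 2w-WD 4. CHOW and 2w-WD differed by -0.03 (SE 0.46, adjusted p = 0.985).

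**Figure D2:**
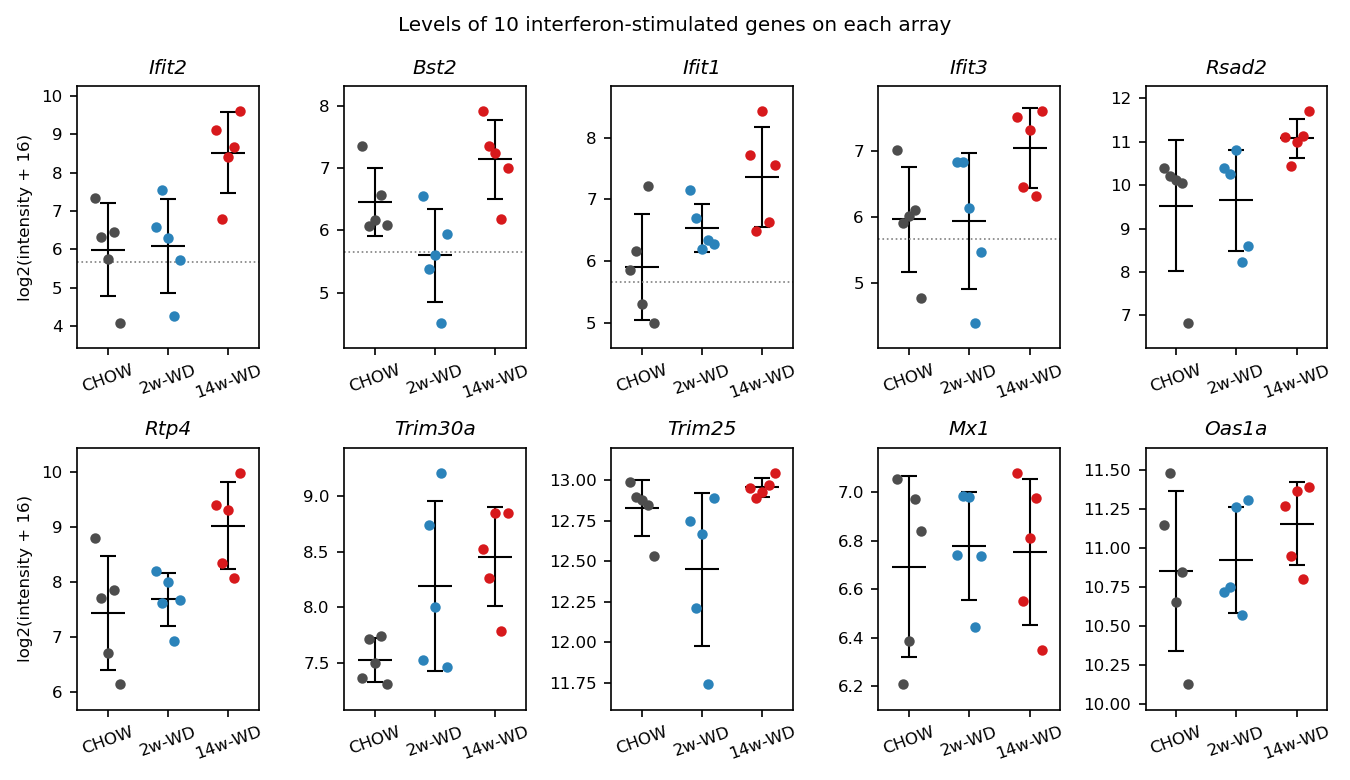
Log2(intensity + 16) of 10 genes (y axes differ between panels) on each array, with 1 point per array, placed from replicate 1 on the left to 5 on the right, and lines for the group mean and SD (n = 5); the dotted line, drawn where it falls in range, is the filter level of 5.66. Ifit2 is above all CHOW and 2w-WD arrays on 4 of 5 14w-WD arrays, and Mx1 overlaps throughout.

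The oligoadenylate synthetases make a messenger that switches on an RNA-cutting enzyme. Oas1a averaged 10.85 ± 0.51, 10.92 ± 0.34 and 11.16 ± 0.27 in CHOW, 2w-WD and 14w-WD (SD, n = 5), with ranges of 10.13 to 11.48, 10.57 to 11.31 and 10.80 to 11.39. The 3 ranges overlapped almost completely. Oas2 averaged 6.17 ± 0.52, 6.21 ± 0.36 and 6.67 ± 0.29, and Oas3 averaged 9.41 ± 0.73, 9.97 ± 0.42 and 10.35 ± 1.29, its 14w-WD arrays ranging from 9.17 to 12.28. The related Oasl1, which holds back translation of Irf7, averaged 6.42 ± 0.18, 6.33 ± 0.29 and 6.30 ± 0.25, and Oasl2 averaged 5.56 ± 0.33, 5.88 ± 0.40 and 5.78 ± 0.49. No member of this family reached an unadjusted p of 0.05 in any comparison, and the change nearest to it was that of Oas2 in 14w-WD against CHOW, 0.50 (SE 0.25, adjusted p = 0.341). Oas1a has near-identical copies in the mouse genome, so part of its signal may belong to them.

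Eif2ak2, the kinase PKR that halts translation on binding double-stranded RNA, averaged 6.87 ± 1.20, 6.79 ± 0.77 and 6.20 ± 0.43. Its change of -0.68 from CHOW at 14 weeks was the lowest of the 41 (SE 0.48, adjusted p = 0.497). Adar, the enzyme that edits adenosine in double-stranded RNA and so shields the cell's own RNA from sensors, read 6.64, 6.93, 6.85, 7.02 and 7.75 in CHOW, 7.11, 7.80, 7.56, 7.40 and 7.82 in 2w-WD, and 6.99, 7.24, 7.44, 6.55 and 7.15 in 14w-WD. The 2w-WD arrays were high, but CHOW 5 lay among them. The change was 0.50 in 2w-WD against CHOW (SE 0.25, adjusted p = 0.530) and -0.46 in 14w-WD against 2w-WD (SE 0.25, adjusted p = 0.211). Of the 10 RNA-binding genes tested, including the IFIT and OAS families, 8 lay above 0 in 14w-WD against CHOW, 7 in 2w-WD against CHOW and 6 in 14w-WD against 2w-WD (7, 8 and 6 after quantile normalization), with Ifit2 the only one to pass, in the last.

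The next role is the handling of nucleotides and nucleic acids. Rsad2 encodes viperin, which turns CTP into a chain terminator of viral polymerases. It read 10.39, 10.22, 10.12, 10.05 and 6.83 in CHOW, 10.39, 10.25, 10.81, 8.22 and 8.60 in 2w-WD, and 11.11, 10.45, 10.99, 11.13 and 11.70 in 14w-WD. All 5 arrays of 14w-WD lay above all 5 of CHOW, although the highest CHOW and the lowest 14w-WD array were close (10.39 and 10.45), and CHOW 5 stood far below the rest of its group. The change from CHOW was 1.55 (SE 0.63, adjusted p = 0.251) and fell by more than 1.5 times, to 0.88, without CHOW 5 (adjusted p = 0.463). Against 2w-WD it was 1.43 (SE 0.63, adjusted p = 0.131), and it passed without CHOW 5 (adjusted p = 0.0441), with the change still 1.43.

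Samhd1, which removes the nucleotides that reverse transcription needs, averaged 12.73 ± 0.26, 12.95 ± 0.24 and 13.11 ± 0.19. Its change of 0.37 at 14 weeks from CHOW had a small error (SE 0.15) yet did not pass (adjusted p = 0.241). Cmpk2, a mitochondrial nucleotide kinase encoded beside Rsad2, averaged 6.00 ± 0.21, 6.01 ± 0.30 and 6.16 ± 0.28. The RNA-degrading Isg20 averaged 5.36 ± 0.64, 5.89 ± 0.58 and 5.83 ± 0.64. By the probe set that represents each, all 4 genes of this role lay above 0 against CHOW at both durations, also after quantile normalization or median centring. None passed. Other probe sets of Samhd1 above the filter differed in sign from CHOW, at -0.15, -0.17 and 0.03 at 2 weeks and -0.14, -0.19 and 0.44 at 14 weeks.

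Among ligases, Herc6 attaches ISG15 to proteins in the mouse, Trim25 adds ubiquitin to the RNA sensor RIG-I, Trim21 targets antibody-bound virus and Trim30a restrains signalling from innate receptors. Trim30a read 7.37, 7.72, 7.51, 7.75 and 7.31 in CHOW, 7.53, 8.74, 8.00, 9.20 and 7.47 in 2w-WD, and 8.52, 8.27, 8.84, 7.79 and 8.84 in 14w-WD. All 5 arrays of 14w-WD exceeded all CHOW arrays, while 2w-WD spanned both groups. Its change from CHOW was 0.92 at 14 weeks (SE 0.34, adjusted p = 0.222) and 0.66 at 2 weeks (SE 0.34, adjusted p = 0.535); quantile normalization turned the order of the durations, to 0.50 and 0.90. By the probe set that represents each gene, Rsad2 and Trim30a were the 2 of 41 without overlap between 14w-WD and CHOW (4.88%). Of all genes, 3.09% were higher without overlap and 4.87% were without overlap in either direction. By the same sets, none of the 41 was without overlap in 2w-WD against CHOW or in 14w-WD against 2w-WD. Of all genes, 1.12% and 8.63% were, the latter made up of 7.06% higher and 1.57% lower. Other probe sets of some of the 41 had no overlap, as given below.

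Trim25 read 12.99, 12.90, 12.88, 12.85 and 12.53 in CHOW, 12.75, 12.21, 12.67, 11.74 and 12.89 in 2w-WD, and 12.95, 12.89, 12.93, 12.97 and 13.05 in 14w-WD. The 14w-WD arrays had an SD of 0.06, and the spread of 2w-WD came mainly from its arrays 2 and 4. The change was -0.38 in 2w-WD against CHOW (SE 0.18, adjusted p = 0.511) and 0.51 in 14w-WD against 2w-WD (SE 0.18, adjusted p = 0.0700). Without 2w-WD 4 these were -0.20 and 0.33 (adjusted p = 0.754 and 0.144). Herc6 averaged 10.51 ± 1.09, 11.35 ± 0.65 and 11.43 ± 1.19, with the highest change of the 41 in 2w-WD against CHOW (0.84, SE 0.56, adjusted p = 0.599). By its chosen set Trim21 was level, at 8.55 ± 0.19, 8.55 ± 0.32 and 8.57 ± 0.28, with changes between 0.00 and 0.02 (SE 0.26). Quantile normalization turned its change between the durations to -0.60. The other set of Trim21 above the filter was 0.57 above CHOW and 0.53 above 2w-WD at 14 weeks, with overlap.

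Parp9 and its partner Dtx3l form a ubiquitin ligase complex, and Parp12 and Parp14 are interferon-induced ADP-ribosyltransferases. Parp9 averaged 7.07 ± 0.41, 6.59 ± 0.41 and 7.26 ± 0.21, with 0.67 between the 2 durations (SE 0.25, adjusted p = 0.0793). Parp12 averaged 9.90 ± 0.47, 9.49 ± 1.39 and 10.41 ± 0.28, and Parp14 averaged 10.43 ± 0.48, 10.11 ± 0.76 and 10.66 ± 0.32. All 3 PARP genes thus had their lowest mean in 2w-WD and their highest in 14w-WD. Dtx3l had the reverse order by its chosen set (8.52 ± 0.51, 8.81 ± 0.50 and 8.16 ± 0.50). The other set of Dtx3l above the filter did not, at 7.07 ± 0.63, 7.09 ± 0.39 and 8.12 ± 0.27. After quantile normalization Parp9 in 14w-WD was no longer above CHOW (-0.07). None of these 4 passed in any comparison, the lowest adjusted p being that of Parp9 above.

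The Mx proteins are GTPases that trap viral nucleocapsids, and C57BL/6 mice carry a defective Mx1. Mx1 read 7.05, 6.21, 6.39, 6.97 and 6.84 in CHOW, 6.74, 6.98, 6.98, 6.45 and 6.74 in 2w-WD, and 7.08, 6.55, 6.81, 6.98 and 6.35 in 14w-WD. The 3 groups covered the same range, and no change exceeded 0.09 in size (SE 0.22).

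Bst2, also called tetherin, holds budding virus particles at the cell surface. It read 7.36, 6.08, 6.16, 6.57 and 6.09 in CHOW, 6.55, 5.39, 5.60, 4.52 and 5.95 in 2w-WD, and 7.91, 7.36, 7.25, 6.18 and 7.01 in 14w-WD. In 14w-WD, 4 of 5 arrays exceeded all 2w-WD arrays, and 14w-WD 4 lay below 2w-WD 1. Bst2 was higher by 1.54 in 14w-WD than in 2w-WD (2.91-fold, SE 0.37, adjusted p = 0.0211, limma). In contrast to Ifit2, the mean of 2w-WD (5.60 ± 0.75) was below that of CHOW (6.45 ± 0.54), a change of -0.85 (SE 0.37, adjusted p = 0.507), and 14w-WD (7.14 ± 0.63) differed from CHOW by 0.69 (SE 0.37, adjusted p = 0.368). The call was lost without 2w-WD 2 (1.49, adjusted p = 0.0541), without 2w-WD 4 (1.27, adjusted p = 0.0627), without 14w-WD 1 (1.35, adjusted p = 0.0668) and without 14w-WD 3 (1.51, adjusted p = 0.0585). With the share of bright probe sets in the model the change was 0.54 (adjusted p = 0.670). The 2w-WD mean lay below the filter level of 5.66, as did 3 of its 5 arrays, so the fold rests on dim values.

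The IFITM proteins stop viruses from fusing with endosomal membranes. Ifitm3 averaged 10.10 ± 0.49, 10.40 ± 0.43 and 10.73 ± 0.39 in CHOW, 2w-WD and 14w-WD, and its change at 14 weeks from CHOW was 0.62 (SE 0.30, adjusted p = 0.319). Ifitm2 (8.92 ± 0.40, 8.56 ± 0.19 and 8.94 ± 0.62) and Ifitm1 (10.55 ± 0.63, 10.60 ± 1.27 and 10.10 ± 0.41) did not follow that order. Members of this family are similar in sequence, and probe sets may not separate them fully. Ifi27 was level at 11.66 ± 0.34, 11.70 ± 0.18 and 11.78 ± 0.17 by its chosen set, which may match several transcripts. Its other set above the filter averaged 7.03 ± 0.73, 6.75 ± 0.51 and 7.63 ± 0.41, with overlap in every comparison.

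Of the nuclear proteins, Ifi204 belongs to the family of DNA-binding proteins that sense foreign DNA. It ranged from 5.63 to 7.99 in CHOW, 6.56 to 8.39 in 2w-WD and 7.70 to 8.56 in 14w-WD, with means of 6.77 ± 0.91, 7.61 ± 0.76 and 8.14 ± 0.38. The lower end of the range differed more between groups than the upper end. Its change at 14 weeks from CHOW was 1.36 (SE 0.42, adjusted p = 0.158) and at 2 weeks 0.84 (SE 0.42, adjusted p = 0.530). After quantile normalization these were 0.99 and 0.94, with 0.05 between the durations. Ifi203, of the same family, did not share this order, at 6.17 ± 0.40, 6.38 ± 0.26 and 5.87 ± 0.35, and was 0.51 below 2w-WD at 14 weeks, a log2 change of -0.51 (SE 0.22, adjusted p = 0.131). These 2 genes have near-identical relatives, so their signals may be shared.

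Sp100, a component of nuclear bodies that silences incoming viral DNA, read 6.29, 6.01, 6.47, 6.66 and 6.61 in CHOW, 6.25, 6.13, 6.17, 6.30 and 6.03 in 2w-WD, and 7.15, 7.27, 6.80, 6.14 and 6.67 in 14w-WD. Array 4 of 14w-WD lay within the narrow 2w-WD range and the other 4 above it. The change of 0.63 between the durations had the next smallest adjusted p after Bst2 and Ifit2 (SE 0.21, adjusted p = 0.0624).

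Among the other interferon-induced genes, Rtp4, a chaperone of membrane receptors, read 8.80, 7.71, 6.71, 7.86 and 6.15 in CHOW, 8.21, 7.62, 8.01, 6.93 and 7.68 in 2w-WD, and 9.40, 8.35, 9.30, 8.08 and 9.98 in 14w-WD. The 3 highest of the 15 values were again 14w-WD 1, 3 and 5. Its changes at 14 weeks were 1.58 from CHOW (SE 0.47, adjusted p = 0.148) and 1.33 from 2w-WD (SE 0.47, adjusted p = 0.0708). The Schlafen gene Slfn2, which keeps T cells and monocytes quiescent, averaged 5.80 ± 0.72, 5.45 ± 0.61 and 6.51 ± 0.60, with 1.06 between the durations (SE 0.37, adjusted p = 0.0659). Slfn5 averaged 7.88 ± 0.94, 8.39 ± 0.43 and 8.59 ± 0.26.

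Xaf1, a promoter of cell death, went the other way at 14 weeks, with means of 5.87 ± 0.28, 6.03 ± 0.53 and 5.41 ± 0.53 and a change of -0.62 from 2w-WD (SE 0.28, adjusted p = 0.134), or -0.41 without 14w-WD 1. Trafd1, a brake on innate signalling, averaged 9.95 ± 1.09, 9.76 ± 1.01 and 10.59 ± 0.28, and Ifi35 averaged 9.80 ± 0.64, 10.42 ± 0.65 and 10.44 ± 0.40. The galectin Lgals9 averaged 6.51 ± 0.74, 6.16 ± 0.50 and 6.72 ± 0.60. Samd9l (10.56 ± 0.41, 10.62 ± 0.57 and 10.80 ± 0.32), Tor3a (6.95 ± 0.37, 6.95 ± 0.54 and 6.89 ± 0.16) and Epsti1 (6.77 ± 0.54, 6.42 ± 0.46 and 6.54 ± 0.29) moved by at most 0.36 in any comparison by their chosen sets. Another set of Tor3a above the filter was 0.41 and 0.61 above CHOW at 2 and 14 weeks, with overlap. None of these 10 genes passed.

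The 15 arrays were also compared by how many of the 41 genes peaked on each. A 14w-WD array held the highest value for 25 of 41 genes (61.0%), where 30.0% of all genes peaked. The lowest value lay in CHOW for 20 genes (48.8%, against 28.9% of all genes) and in 2w-WD for 14 (34.1%, against 53.8%). Within 14w-WD the genes were spread unevenly: array 5 held the highest value of 11 of the 41 genes, where 4.60% of all genes peaked, and array 4 held none. At the other end, CHOW 5 held the lowest value of 9 and 2w-WD 4 that of 8 of the 41 genes, where 9.46% and 25.9% of all genes were lowest. The median deviation of the 41 genes from their own means was -0.05 on 14w-WD 4 and 0.43 on 14w-WD 3. These were also the arrays of 14w-WD with the smallest and largest share of bright probe sets, 22.5% and 27.2%.

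**Figure D3:**
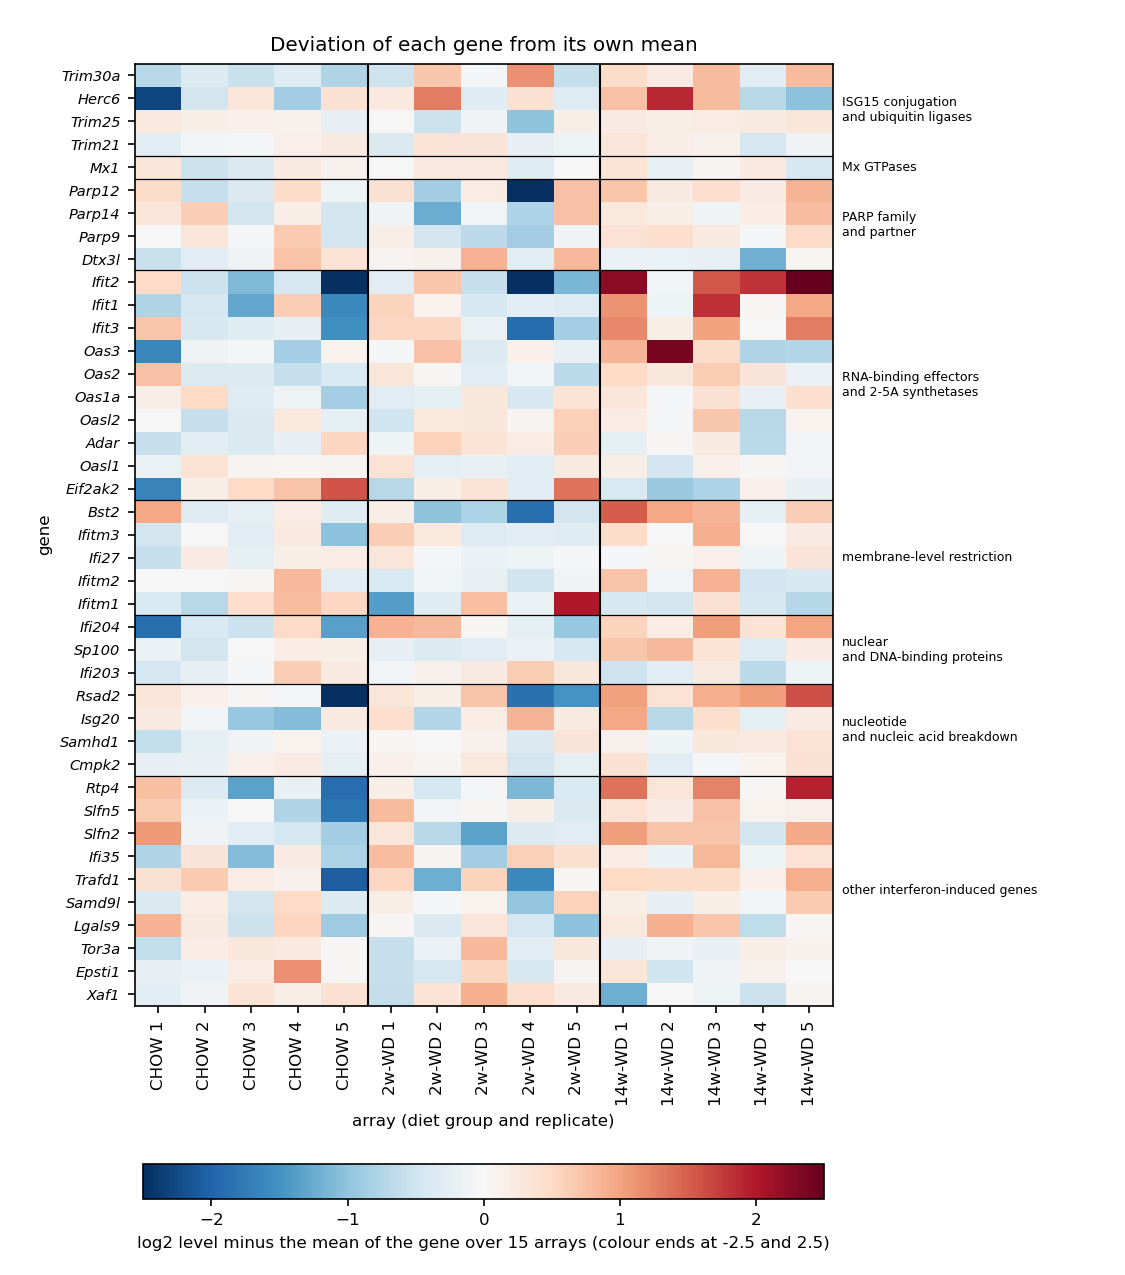
Deviation of each of the 41 tested genes (y axis, by role) from its own mean over the 15 arrays (x axis, by diet group and replicate) in log2 units by colour. Ifit1, Ifit3, Bst2 and Rtp4 are higher on 14w-WD 1, 3 and 5 than on 14w-WD 4, and Ifit2 and Ifit3 are low on CHOW 5 and 2w-WD 4.

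Of the 41 genes, 12 had several probe sets above the filter, which allows a look at how far a result rests on the chosen one. These differences between group means were not tested. All probe sets of a gene had the same sign in 9 of 12 genes for 14w-WD against CHOW, and in 7 of 12 for each of the other comparisons. The mean of Rsad2 was higher in 14w-WD than in CHOW by both of its sets above the filter (1.55 and 1.01). So was that of Trim30a (0.92 and 1.17). In each of these 2 genes the second set overlapped between the groups, unlike the chosen one. At 2 weeks the second set of Trim30a was at -0.11 from CHOW, where the chosen set gave 0.66. The following genes were picked after their values were seen. The chosen set of Trim25, which may match several transcripts, gave 0.51 between the durations. The other 2 gave 1.87 and 0.81, both without overlap between the groups. The set that gave 1.87 was also 0.75 above CHOW at 14 weeks without overlap. Another set of Herc6 was 0.54 above CHOW at 14 weeks without overlap, where the chosen set gave 0.92 with overlap. The second set of Adar averaged 5.04 ± 0.40, 6.33 ± 0.74 and 6.44 ± 0.85, 1.40 above CHOW at 14 weeks without overlap, where the chosen set gave 0.04. For Dtx3l the 2 sets were of opposite sign, -0.36 and 1.05 in 14w-WD against CHOW, and -0.64 and 1.03 against 2w-WD. The change of 1.03 was without overlap.

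**Figure D4:**
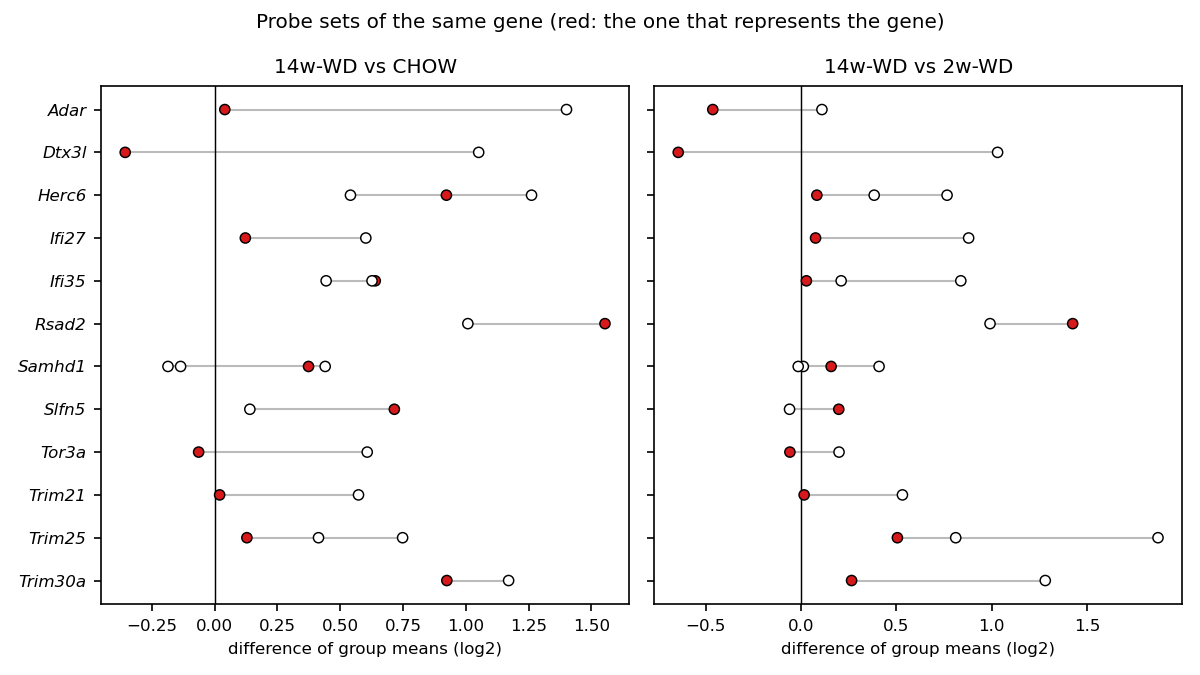
Difference of group means in log2 units (x axes) for each probe set above the filter of the 12 genes (y axis) with several such sets; red marks the set that represents the gene and lines join sets of 1 gene. Rsad2 and Trim30a have both sets above 0 in both panels, and Dtx3l has 1 set on each side of 0.

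Genes with and without the promoter core were set side by side as a description. In 14w-WD against CHOW the 14 tested genes with the core had a median change of 0.66 and 12 of them lay above 0, and the 19 tested genes without it had a median of 0.24 with 14 above 0. For 14w-WD against 2w-WD the medians were 0.35 and 0.12, and for 2w-WD against CHOW 0.10 and 0.06. Tested genes without a listed window were left out, among them Rtp4 and Ifi204, whose changes from CHOW at 14 weeks exceeded 1. Ifit2, with the highest change in both 14w-WD comparisons, was among the genes without a match in the stretch shown above. Eif2ak2, with the lowest change from CHOW at 14 weeks, was among those with one.

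The pathway upstream was represented by 30 other genes, 27 with a probe set of their own and 19 tested. None passed against CHOW at either duration, and 2 rose in 14w-WD against 2w-WD (10.5%, near the 11.2% of all genes). Irf1, a transcription factor induced by interferon, averaged 7.76 ± 0.52, 7.43 ± 0.24 and 8.63 ± 0.44, and rose by 1.20 between the durations (SE 0.30, adjusted p = 0.0238). Tyk2, a kinase of the type I receptor, averaged 5.45 ± 0.44, 5.54 ± 0.24 and 6.35 ± 0.38 and rose by 0.81 (SE 0.23, adjusted p = 0.0365), but its CHOW and 2w-WD means were below the filter level, so it was tested only through its 14w-WD arrays. Of the 4 receptor chains, Ifngr1 for interferon gamma came nearest between the durations, at 1.38 (SE 0.44, adjusted p = 0.0515). All 4 lay above 0 in both 14w-WD comparisons, except that quantile normalization put Ifngr1 at -0.13 against CHOW. In 2w-WD against CHOW all 4 lay below 0, with Ifngr1 the lowest at -1.13. At 14 weeks Ifngr1 differed from CHOW by 0.25.

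Of 9 interferon ligands on the array, Ifna1, Ifna2, Ifna4, Ifna9 and Ifng were below the filter. Ifna11 had the smallest unadjusted p of the ligands between the durations, with a change of -0.57 (SE 0.25, adjusted p = 0.133), and Ifnb1 averaged 6.61 ± 0.45, 6.92 ± 0.32 and 6.60 ± 0.14. The factors Stat2 and Irf7 and the inhibitor Socs1 were below the filter. Of the inhibitors tested, the phosphatase Ptpn6 came nearest between the durations, at 0.54 (SE 0.28, adjusted p = 0.187). Plasmacytoid dendritic cells are known as a strong source of type I interferon, and the mean of their 7 markers ran from 7.33 to 7.90 in CHOW, 7.97 to 8.12 in 2w-WD and 7.64 to 7.83 in 14w-WD, with none of the 7 passing in any comparison. CHOW 4 was the lowest CHOW array both in this mean (7.33) and for the heart muscle markers (6.67). On 2w-WD 1 they parted, with the lowest 2w-WD value in this mean (7.97) and the highest for heart muscle (12.41). The part of heart muscle signal in this mean was not tested.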

How the data were processed

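Macrophages were captured by laser, and their RNA was extracted with PicoPure, amplified with RiboAmp HS and biotin-labelled, per the labels' protocols. The authors deposited 1 linear intensity per probe set and array; the summarisation and normalization behind it are not given in the sources used here, and array medians lay between 31.7 and 38.2. The array annotation gave 1 gene for 34945 of 45037 probe sets, several for 932 and none for 9160, and probe sets with several genes were left out. Levels are log2(intensity + 16). The probe set with the highest mean represented a gene, and genes below the median of all probe sets were left out. limma 3.58.1 (lmFit, eBayes with trend, R 4.3.3) was fitted to all 15 arrays with 3 two-sided contrasts, and p-values were adjusted by Benjamini-Hochberg over 11925 genes. The script was tested on simulated data. The 47 genes, the pathway and marker lists and the tests were chosen with earlier results of these data known. Full values were given for genes that passed and for the 3 with the smallest p in each contrast. Ifit3, Rsad2, Mx1 and Trim30a were given in full after their values were seen. Of the pathway, genes that passed were named, and otherwise the 1 of each class with the smallest p. Promoter sequences are RefSeq's (GRCm38.p6). For arrays, their number and signal over background limit the precision. Alternatives changed the scaling, pseudocount, filter, probe sets, weights, covariates, replicate block and arrays used.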

Additional observations from a re-analysis of the deposited data

Results flagged for a closer look

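Among 123 sets of 5 arrays (41 genes in 3 groups), 7 held 1 array far from its group, where chance gives about 1 in 20. On CHOW 5, Rsad2 was low at 6.83 (the other 4 at 10.05 to 10.39) and Trafd1 was low at 8.04 (the others at 10.20 to 10.75). On CHOW 1, Oas2 was high at 7.08 (the others at 5.77 to 6.01) and Tor3a was low at 6.32 (the others at 6.96 to 7.21). On 14w-WD 4, Dtx3l was low at 7.29 (the others at 8.30 to 8.54) and Slfn2 was low at 5.46 (the others at 6.62 to 6.96). On 2w-WD 1, Ifi27 was high at 12.02 (the others at 11.58 to 11.67).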

How the results depend on the processing

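In 2w-WD against CHOW none of the 41 genes passed under any of 29 alternatives. In 14w-WD against CHOW none passed except with array weights (9 genes, all higher, beside 18.7% of all genes) and without the 3 arrays of lowest weight, 2w-WD 1, CHOW 1 and 2w-WD 4 (5 genes, 4 higher and 1 lower; 12.2%, beside 11.3% of all genes), an alternative chosen after seeing the data. In 14w-WD against 2w-WD the count of 2 became 1 with a pseudocount of 1 (beside 10.5% of all genes; Ifit2 was lost), 4 with the mean of all probe sets (9.76%, beside 12.8%), 10 with array weights (9 higher, 1 lower; 24.4%, beside 32.2%), 6 without those 3 arrays (14.6%, beside 26.6%) and 0 with the share of bright probe sets as a covariate. With the replicate number as a block it was 4 (9.76%, beside 17.8% of all genes). Of 15 same-numbered pairs 7 correlated above 0.1, with values from -0.17 to 0.48 over all pairs. Of 15 arrays 6 correlated best with an array of their own number. Whether equal numbers mark related samples is not settled by these values. Leaving out 1 array at a time gave 0 to 9 genes: 0 without 2w-WD 4, 14w-WD 1 or 14w-WD 3, 1 without 2w-WD 2 or 14w-WD 5, 4 without CHOW 1, 5 without 14w-WD 4 and 9 without 2w-WD 1 (beside 29.7% of all genes). Quantile normalization gave 3 (2 higher, 1 lower; 7.32%, beside 8.30% of all genes). The causes were not tested. The 22 changes followed through the alternatives, those at an unadjusted p under 0.05 or among the 3 smallest of their comparison, kept their direction wherever they could be computed (Slfn2 and Xaf1 drop out of the stricter filter). Of the others, Parp9 against CHOW at 14 weeks (-0.07), Trim21 between the durations (-0.60) and Ifngr1 against CHOW (-0.13) turned under quantile normalization, among more. Oasl2 and Isg20 in CHOW, Bst2 and Slfn2 in 2w-WD and Xaf1 in 14w-WD averaged below the filter level.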
